A study of Mus musculus with 80 samples.

Results

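Old CD150 high and old CD150 low hematopoietic stem cells (HSCs) were compared on day 4 after transplantation by bulk RNA-seq. The members are the 6 transplanted libraries (3 CD150 high, 3 CD150 low) of 80 samples in the series, and the 11077 of 21825 genes whose mean reached at least 1 FPKM (fragments per length of transcript and per depth of library) in at least 1 of both groups. Abcb1a, at a mean of 1.0006 FPKM in its higher group, was just inside that limit, and Gm10271, at 0.9996 FPKM, was just outside. All donor cells came from male C57BL/6 mice of 20 to 24 months and were sorted as lineage-negative, Sca-1 and c-Kit positive cells that had CD150 but no CD48 or CD34, and the cells with the lowest and with the highest CD150 were transplanted separately. Both groups carry the CD45.2 marker and went into lethally irradiated CD45.1 recipients with Sca-1-depleted helper marrow, so both were read from regenerating marrow. The labels do not say whether the 3 libraries of a group came from separate recipients, so p-values measure the spread between these libraries, which may be technical, and the gate at recovery is not given in the sources used here. Fresh old HSCs of the lowest (G1) and the highest (G4) of 4 CD150 gates, never transplanted, served as the counterpart, and share no library with the transplanted comparison. By the labels both gates came from the same 3 mice. The fits below did not use this pairing unless a mouse block is stated.

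HSCs are the rare marrow cells that renew themselves and give rise to all blood lineages. CD150 is the product of Slamf1, a receptor of the SLAM family, and old marrow is known to hold more HSCs with much CD150, which are known for a bias toward megakaryocytes and platelets. Most HSCs rest outside the cell cycle, and transplantation into irradiated marrow is known to drive them into division before they differentiate.

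The 6 transplanted libraries had 10362 to 10829 genes at 1 FPKM or more. Genes above 0 numbered 14581 to 15180 in the CD150 high libraries and 15237 to 15857 in the CD150 low libraries, without overlap, and the part of this in the results was not tested. Correlations of log2(FPKM + 1) between libraries are 0.952 to 0.974 within the CD150 high group, 0.963 to 0.968 within the CD150 low group, and 0.937 to 0.974 between groups. Each library lists the 13 genes of the mitochondrial genome at 0, so a 0 in these tables is not absence. Of 26 macrophage genes, 23 reached the limit for testing, and their summed level was 846 to 1435 FPKM in CD150 high and 472 to 1211 FPKM in CD150 low libraries. The sum over the 26 genes was 1043 to 1554 FPKM in G1 and G4, and Apoe (below) was a large part of it. The mean of log2(FPKM + 1) over this list was 2.1 to 3.87 in the transplanted libraries and 1.3 to 1.54 in G1 and G4. Of 15 neutrophil genes none reached the limit. The 13 endothelial and stromal genes set 2 libraries apart: they summed to 170 and 98.8 FPKM in CD150 low replicates 1 and 2, and to 27.5 to 31.8 FPKM in the other 4 transplanted libraries.

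**Figure D1:**
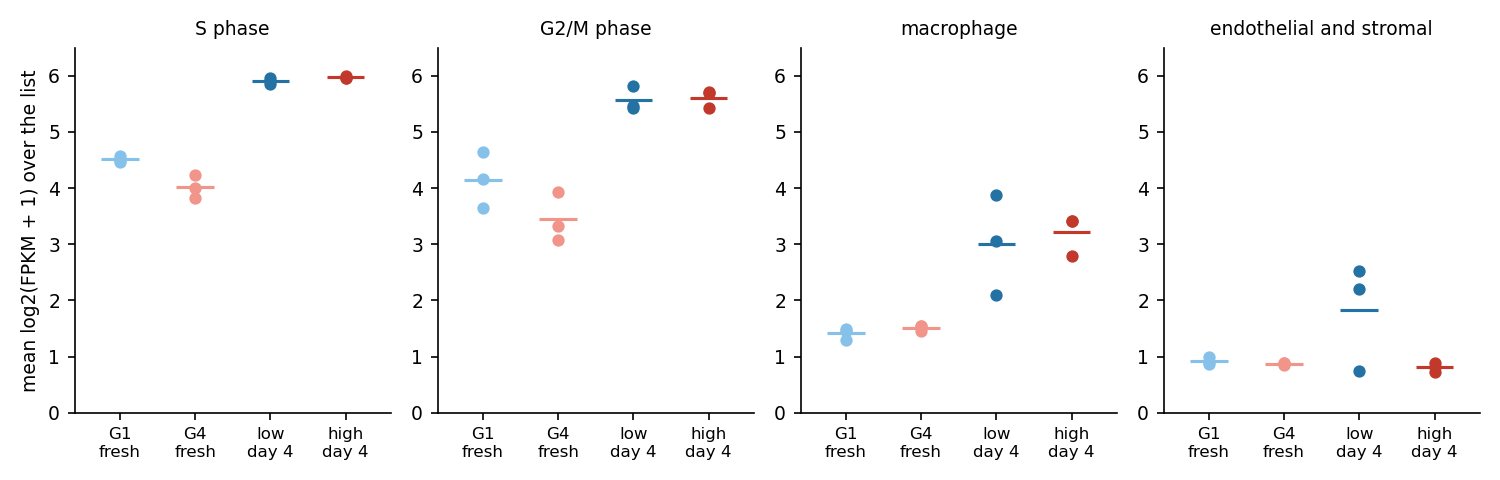
Mean log2(FPKM + 1) over 4 gene lists (y axis) in 3 libraries each of fresh G1, fresh G4, CD150 low on day 4 and CD150 high on day 4 (x axis), with a point per library and a line at the group mean. Both cell cycle lists sit at 5.42 to 5.99 in all transplanted libraries, and the endothelial and stromal list stands at 2.53 and 2.21 in 2 CD150 low libraries against 0.73 to 0.88 in the other 4.

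No gene passed between CD150 high and CD150 low at an adjusted p under 0.05 (limma with a mean-variance trend on log2(FPKM + 1), Benjamini-Hochberg adjusted over 11077 genes, percent called 0), and the smallest adjusted p was 0.186. At an unadjusted p under 0.05 stood 442 genes higher (3.99%) and 384 lower (3.47%) in CD150 high cells. The groups did not overlap for 760 genes higher (6.86%) and 707 genes lower (6.38%), and the median log2 difference over all genes was 0.006. A further fit took in all 24 bulk libraries of the series, which shared 1 estimate of the spread. Besides the transplanted, G1 and G4 libraries these were HSCs of young mice (2 to 4 months), unselected old HSCs and the middle gates G2 and G3. In this fit 21 genes were called higher (0.19%) and 11 lower (0.0993%), with no overlap between groups for any of the 32. That number moved with single libraries: it was 15 without CD150 low replicate 2, 18 without CD150 high replicate 1, 20 without CD150 high replicate 2 and 172 without CD150 low replicate 3. Leaving out both libraries holding endothelial and stromal transcripts left a single CD150 low library, so no number of calls is given for that setting. Log2 differences below are CD150 high minus CD150 low on the log2(FPKM + 1) scale with standard errors of the 6-library fit, and they understate differences of genes with few FPKM.

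Clu, which encodes the secreted chaperone clusterin, had the smallest p of all genes. It was at 79.0, 50.0 and 53.0 FPKM in the CD150 high libraries and at 21.1, 8.3 and 9.98 FPKM in the CD150 low libraries. Every CD150 high library lay above every CD150 low library. The log2 difference was 2.20 ± 0.31 (SE, n = 3 against 3, limma adjusted p = 0.186), and in the fit of all 24 libraries Clu was called (adjusted p = 4.91e-05). Clu lies on chromosome 14, 65968483 to 65981547 (GRCm38, plus strand).

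Of 6 SLAM family genes that reached the limit, 1 lay without overlap above (Slamf1) and 2 below (Cd48 and Cd244a), and the other 3 overlapped, among them Cd84 (log2 difference 0.26) and Ly9 (-0.20). Over all genes 6.86% lay without overlap above and 6.38% below. Slamf1, the gene of CD150 itself, stood at 28.2, 26.9 and 33.3 FPKM in CD150 high and at 14.2, 14.9 and 16.8 FPKM in CD150 low libraries. The sorted difference in CD150 was thus still present in its mRNA on day 4, without overlap, with a log2 difference of 0.90 ± 0.20 (limma adjusted p = 0.329) against 1.88 ± 0.27 between fresh G4 and G1. Cd48, a SLAM family ligand that marks progenitors downstream of HSCs and was gated out before transplantation, was at 13.4, 16.2 and 25.0 FPKM in CD150 high and at 42.2, 94.3 and 53.4 FPKM in CD150 low libraries. Cd48 is thus higher in every CD150 low library (log2 difference -1.70 ± 0.30), and in fresh G4 and G1 cells it did not reach the limit for testing. Cd244a, the receptor for CD48, was at 0.144, 0 and 0.54 FPKM in CD150 high and at 3.05, 2.85 and 4.52 FPKM in CD150 low libraries (log2 difference -1.87 ± 0.37), and was called in the fit of all 24 libraries (adjusted p = 0.00417). Cd244a, Cd48 and Slamf1 lie near each other on chromosome 1 of GRCm38, with Cd244a at 171559193 to 171609746, Cd48 at 171682009 to 171705258 and Slamf1 at 171767127 to 171801184, all on the plus strand.

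Other surface markers used to sort HSCs differed less evenly. Cd34, a sialomucin that mouse HSCs lack and progenitors carry, was at 27.9, 20.8 and 8.12 FPKM in CD150 high and at 72.5, 52.2 and 81.1 FPKM in CD150 low libraries. All 3 CD150 low libraries lay above the CD150 high libraries (log2 difference -1.93 ± 0.36), and Cd34 was called with all 24 libraries (adjusted p = 0.00944). Cd27, a TNF receptor family member, averaged 25.8 ± 5.8 FPKM (SD, n = 3) in CD150 high and 50.4 ± 15.2 FPKM in CD150 low cells, without overlap (log2 difference -0.91 ± 0.26). Flt3, the cytokine receptor of multipotent and lymphoid progenitors, was under 0.5 FPKM in CD150 high libraries and at 0.784 to 1.31 FPKM in CD150 low libraries. It reached the limit for testing only through the CD150 low mean of 1.01 FPKM, which favours this direction. Its log2 difference was -0.69 with a 95% interval of -1.53 to 0.14, which includes 0. The genes of the other sort markers overlapped between groups: the log2 difference was -0.32 for Kit (95% interval -0.79 to 0.14), -0.14 for Ly6a, the gene of Sca-1 (-0.43 to 0.15), and -0.01 for Procr, the gene of EPCR (-0.42 to 0.40). In bulk libraries, fewer cells of a type and less RNA per cell cannot be told apart, so these values do not say whether all cells or some of them carried more Cd48 and Cd34.

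Among 32 HSC transcription factors, 17 were above 0 with a median log2 difference of 0.05, against 50.9% of all genes above 0. Without overlap lay 3 above and 1 below, beside 6.86% and 6.38% of all genes. Members below 0 with overlap include Hlf (-0.21), Hoxa9 (-0.19) and Lmo2 (-0.20). Gfi1b, a repressor needed for the megakaryocyte and erythroid lineages, was at 63.7, 75.4 and 63.5 FPKM in CD150 high and at 44.2, 30.0 and 45.3 FPKM in CD150 low libraries. It was thus higher in all 3 CD150 high libraries (log2 difference 0.77 ± 0.19). Hoxb5, a homeobox gene that marks long-term HSCs, averaged 5.32 ± 1.88 FPKM (SD, n = 3) in CD150 high and 2.38 ± 0.471 FPKM in CD150 low cells, without overlap. Mecom, a regulator of HSC maintenance, was at 41.9 ± 2.07 against 31.7 ± 3.92 FPKM, also without overlap. Prdm16, another regulator of HSC maintenance, was at 6.48 ± 2.04 against 2.83 ± 1.24 FPKM, with overlap. Foxo3, a transcription factor of quiescence and stress resistance, stood lower in CD150 high cells at 1.76 ± 0.126 against 4.06 ± 0.422 FPKM, without overlap (log2 difference -0.87 ± 0.30). Ctnnal1, which encodes α-catulin and marks HSCs, was higher at 14.3 ± 3.04 against 6.29 ± 0.399 FPKM, without overlap. It belongs to a list of sort and HSC markers, of which 9 of 19 tested were above 0 (median -0.01). Of these 19, 3 lay without overlap above and 5 below, and Fgd5 was at -0.48 with overlap.

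**Figure D2:**
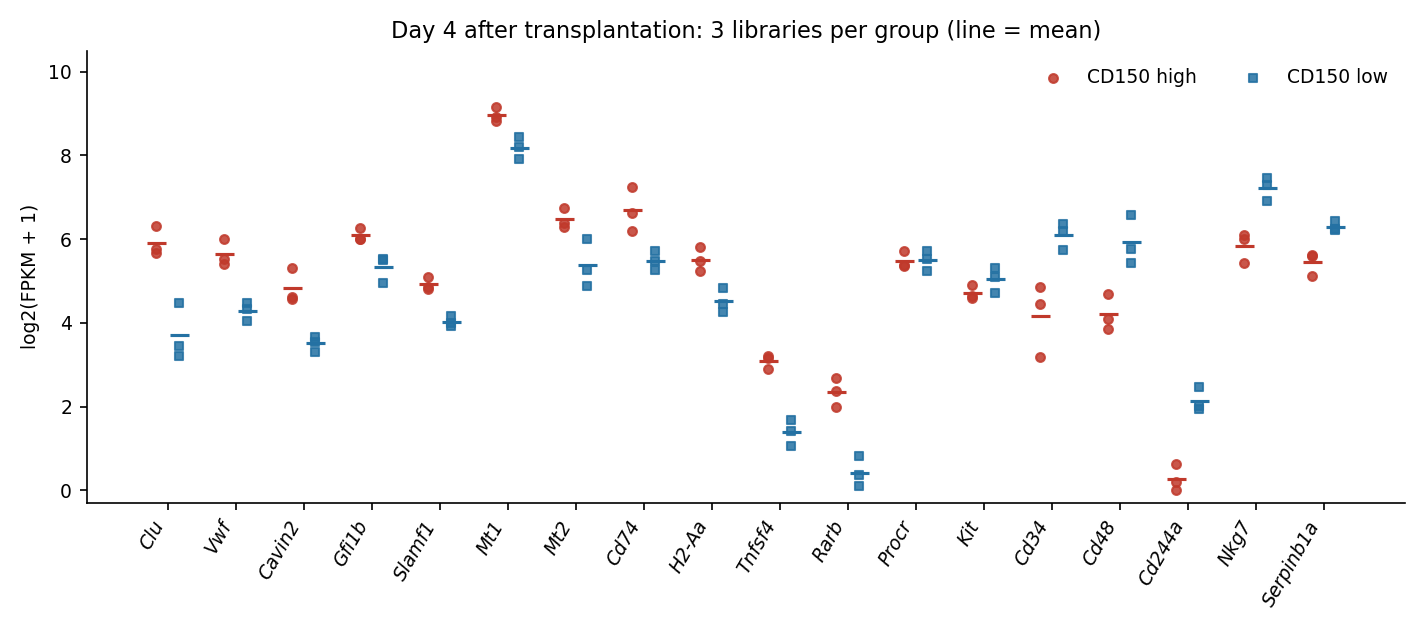
Levels of 18 genes on day 4 (y axis, log2(FPKM + 1)) in 3 CD150 high and 3 CD150 low libraries, with a point per library and a line at the mean of the log2 values. Only Procr and Kit have groups that overlap; Clu, Vwf and Slamf1 are higher in all CD150 high libraries, and Cd34, Cd48, Cd244a, Nkg7 and Serpinb1a are lower in all of them.

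Genes of megakaryocytes and platelets tended to be higher in CD150 high cells. Of 31 listed genes 27 were tested, and 20 of these (74.1%) were above 0 with a median log2 difference of 0.36 (0.627 without CD150 low replicate 3), against 50.9% and 0.006 over all genes. For 6 of the 27 the CD150 high libraries lay above the CD150 low libraries and for 0 below, where 6.86% of all genes lie above and 6.38% below. Clu and Gfi1b, described above, are among these 6. Vwf, the gene of von Willebrand factor and a marker of platelet-biased HSCs, was at 45.0, 41.2 and 63.5 FPKM in CD150 high and at 21.3, 19 and 15.6 FPKM in CD150 low libraries. Vwf was thus higher in every CD150 high library (log2 difference 1.36 ± 0.21, limma adjusted p = 0.221), and was called with all 24 libraries (adjusted p = 0.00593). Cavin2, a caveolar coat protein abundant in platelets, was at 38.4, 22.6 and 23.6 FPKM against 11.7, 10.7 and 8.93 FPKM, again without overlap (log2 difference 1.32 ± 0.25), and was likewise called with all 24 libraries (adjusted p = 0.0012). Mmrn1, which stores factor V in platelets, averaged 49.1 ± 3.88 against 31.6 ± 12.8 FPKM, and the urea transporter gene Slc14a1 averaged 29.6 ± 5.76 against 18.2 ± 6.27 FPKM, both without overlap. The platelet glycoprotein gene Gp9 was at 40.5 ± 5.72 against 26.9 ± 10.4 FPKM, and Rab27b, which serves granule release, at 17.9 ± 6.01 against 9.91 ± 4.39 FPKM, both with overlap. Some megakaryocyte genes differed little: the log2 difference was 0.13 for Pf4, the platelet factor 4 gene (95% interval -0.39 to 0.64), and 0.08 for Selp, the P-selectin gene (-0.37 to 0.52). Members below 0, with overlap, include F2rl2 (-0.77 ± 0.54), Trpc6 (-0.58 ± 0.31), Itga2b (-0.33 ± 0.38), P2ry1 (-0.22 ± 0.43) and Gata1 (-0.12 ± 0.40). Of the tested members 3 also stand in the list of genes rising with CD150 in fresh cells (below), and over the other 24 the median was 0.34 with 17 above 0. Between fresh G4 and G1, 19 of 27 members were above 0 (median 0.26). Pf4 was there lower in G4 without overlap (-0.96 ± 0.27), and Ppbp was at -0.86.

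Genes that the study names for CD150 or age, some as rising and some as falling, were read next. Of 26 tested, 21 (80.8%) were above 0 with a median log2 difference of 0.37, and 9 had CD150 high libraries wholly above and 2 wholly below the CD150 low libraries. Over all genes 50.9% were above 0, 6.86% lay wholly above and 6.38% wholly below. The choice of these study-named genes is not independent of the fresh libraries. All 15 that were above 0 in fresh G4 and tested in both were above 0 on day 4 (median 0.90, 9 without overlap), whereas of 10 that were below 0 in fresh G4, 4 were below 0 and 6 above 0 on day 4 (median 0.01, 2 without overlap below). Nkg7, a granule protein gene of cytotoxic cells, was at 42.4, 63.3 and 67.0 FPKM in CD150 high and at 119, 174 and 157 FPKM in CD150 low libraries. It was thus lower in all 3 CD150 high libraries (log2 difference -1.38 ± 0.20, limma adjusted p = 0.186), as it was in G4 against G1 (-1.93 ± 0.42). Serpinb1a, a neutrophil elastase inhibitor gene, was at 47.1, 47.9 and 34 FPKM against 86.0, 73.4 and 74.8 FPKM, without overlap (log2 difference -0.86 ± 0.18). The metallothionein genes Mt1 and Mt2, whose products bind zinc and copper, were higher together. Mt1 was at 485, 455 and 572 FPKM against 295, 345 and 239 FPKM (log2 difference 0.79 ± 0.15). Mt2 was at 83.0, 77.5 and 107 FPKM against 62.8, 37.2 and 28.3 FPKM (log2 difference 1.10 ± 0.26), so that neither gene overlapped between groups. Ehd3, an endocytic recycling gene, was at 6.03 ± 0.618 against 2.55 ± 0.54 FPKM and Enpp5 at 32.8 ± 7.85 against 17.6 ± 8.31 FPKM, both without overlap. Sbspon, which encodes a somatomedin B and thrombospondin domain protein, was at 76.8 to 92.5 FPKM in G4 and at 5.77 to 14.1 FPKM in G1, and on day 4 was at 1.13, 3.77 and 2.51 FPKM in CD150 high and at 0.157, 0.246 and 0.614 FPKM in CD150 low libraries. The 2 transplanted groups still did not overlap for Sbspon, at levels under those of all 6 fresh libraries. Rnase6, an antimicrobial ribonuclease gene that was lower in G4 (log2 difference -1.76 ± 0.42), had overlapping groups on day 4 (-0.34, 95% interval -0.82 to 0.14). Genes lower in G4 that were not lower on day 4 include Usp6nl, a GTPase regulator gene, at -1.72 ± 0.46 in fresh cells and 0.41 ± 0.34 on day 4. The mitotic kinesin gene Kif15 was at -1.15 ± 0.30 and 0.34 ± 0.26, and Lrr1 at -1.48 ± 0.32 and 0.00 ± 0.21. Higher in G4 without overlap were Ramp2, a subunit of adrenomedullin receptors, at 1.61 ± 0.32 in fresh cells and 0.40 ± 0.25 on day 4, and the junctional adhesion gene Jam2 at 1.21 ± 0.17 and 0.80 ± 0.33. For 2 further genes the fresh groups overlapped. The stress-response gene Nupr1 was at 0.48 ± 0.27 in fresh cells and 0.45 ± 0.30 on day 4, and the adhesion gene Alcam at 0.13 ± 0.24 and 0.08 ± 0.30. The groups overlapped on day 4 for all 7.

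The fresh comparison gave few calls of its own, and its genes were then read in the transplanted libraries. Between G4 and G1, 2 genes were called higher (Clu and Sbspon, 0.0174% of 11466 genes) and 1 lower (Wfdc17, 0.00872%), and with the mouse as a block 1 was called (Wfdc17). Clu and Sbspon were both above 0 on day 4, with a median log2 difference of 1.76, and Wfdc17 was not below 0. Without G1 replicate 3 the calls were 69 higher and 27 lower in G4, so that these calls rest on leaving out that library, and without G4 replicate 1 or 3 there were 0 calls and without G4 replicate 2 there was 1. Of the 69, 62 could be tested on day 4, and 60 of them (96.8%) were above 0 with a median log2 difference of 0.77, where 50.9% of all genes were above 0. CD150 high libraries lay wholly above CD150 low libraries for 34 of the 62 and wholly below for 0, against 6.86% and 6.38% of all genes. Of the 27 lower in G4, 26 could be tested, and 20 (76.9%) were below 0 with a median of -0.20, against 49.1% of all genes below 0. For 9 of the 26 the CD150 high libraries lay wholly below and for 1 wholly above.

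Looser sets drawn from all 6 fresh libraries gave the same order with smaller shares. At an unadjusted p under 0.05, 370 genes were higher (3.23%) and 368 lower (3.21%) in G4, and the fresh groups did not overlap for 7.3% and 7.24% of genes. Of the 292 higher that were tested on day 4, 192 (65.8%) were above 0, and 57 stood without overlap in that direction against 10 in the other. Of the 335 tested genes lower in G4, 176 (52.5%) were below 0, with 31 without overlap in that direction against 19 in the other. Over all genes on day 4, 50.9% were above 0 and 49.1% below, so the 52.5% was near the share of all genes. On day 4, 6.86% of all genes lay without overlap above and 6.38% below. A list of genes rising with CD150 over the fresh gates G1 to G4, made by the submitters without the transplanted libraries, had 105 tested members, of which 82 (78.1%) were above 0 with a median of 0.32 (0.166 without CD150 low replicate 2), and 31 lay without overlap above and 4 below. The matching list of genes falling with CD150 had 91 tested members, of which 54 (59.3%) were below 0 with a median of -0.06, and 14 lay without overlap below and 5 above. Among the rising list, Tnfsf4 (OX40 ligand) was at 8.23, 7.89 and 6.41 FPKM in CD150 high and at 1.66, 1.1 and 2.21 FPKM in CD150 low libraries, without overlap (log2 difference 1.70 ± 0.31). Rarb, the retinoic acid receptor β gene, was at 2.96, 4.19 and 5.38 FPKM against 0.0675, 0.283 and 0.754 FPKM (1.92 ± 0.37). Both were called with all 24 libraries, at an adjusted p of 0.00417 each. Clnk, an adaptor of immune receptors from the falling list, was at 0.142 ± 0.222 against 2.88 ± 1.39 FPKM, without overlap. Over all 10649 genes in both fits the log2 differences had a Pearson r of 0.061, across genes, which are not independent, and 50.8% had the same sign. Read the other way, of 438 genes higher on day 4 at an unadjusted p under 0.05 that were tested in fresh cells, 249 (56.8%) were above 0 in G4 against 51.3% of all genes, and of 336 lower on day 4, 153 (45.5%) were below 0 against 48.7% of all genes.

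**Figure D3:**
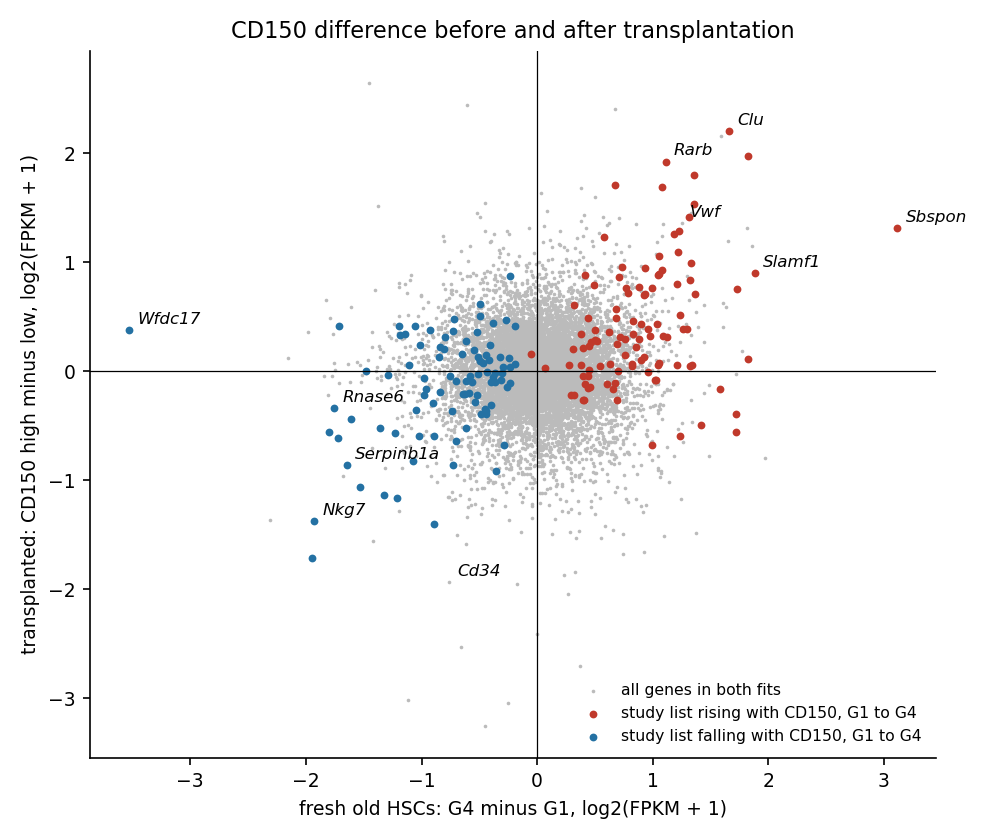
Log2 difference on day 4 (y axis, CD150 high minus low) against that in fresh HSCs (x axis, G4 minus G1) for 10649 genes, both on log2(FPKM + 1). Of the listed genes rising with CD150 (red) 82 of 105 lie above 0 on the y axis, of those falling with CD150 (blue) 54 of 91 lie below 0, and Wfdc17 stands at -3.53 in fresh cells and 0.38 on day 4.

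S phase and G2/M genes, lower in fresh CD150 high cells, had overlapping summed levels in the transplanted groups. Of 41 S phase genes tested in fresh cells 1 was above 0 in G4 (median -0.49), and of 54 G2/M genes 4 were (median -0.70). On day 4, 28 of 42 S phase genes were above 0 (median 0.09) and 30 of 54 G2/M genes were (median 0.02), against 50.9% of all genes. Without overlap lay 4 S phase genes above and 3 below, and 0 G2/M genes above and 1 below, beside 6.86% and 6.38% of all genes. In fresh cells S phase genes summed to 1629 to 1787 FPKM in G1 and 1160 to 1410 FPKM in G4, without overlap. Fresh G2/M sums overlapped, at 1512 to 2203 FPKM in G1 and 1173 to 1665 FPKM in G4. Summed FPKM were above these in both transplanted groups, at 4294 to 4645 FPKM for S phase and 4488 to 5854 FPKM for G2/M. The transplanted ranges overlapped, at 4548 to 4645 FPKM in CD150 high against 4294 to 4634 FPKM in CD150 low for S phase, and 4488 to 5543 against 4736 to 5854 FPKM for G2/M. Of 39 genes of the replication machinery 31 (79.5%) were above 0, at a median of 0.11 (0.035 without CD150 low replicate 2), with 3 without overlap above and 0 below. Ccne2, a cyclin of the entry into S phase, was at 46.3 ± 3.34 FPKM (SD, n = 3) in CD150 high and 33.8 ± 1.56 FPKM in CD150 low cells, and Hells, a chromatin remodeller of replicating cells, at 93.2 ± 14.3 against 69.1 ± 7.68 FPKM, both without overlap. The ribonucleotide reductase gene Rrm2 (log2 difference 0.39 ± 0.15) and the mitotic genes Kif20b (0.42 ± 0.18) and Cdca2 (0.58 ± 0.25) had overlapping groups. Uhrf1 (-0.48 ± 0.22) and Tipin (-0.23 ± 0.10) of the S phase list were lower in all CD150 high libraries, as was Jpt1 (-0.13 ± 0.11) of the G2/M list. Rb1, the retinoblastoma protein gene that restrains S phase entry, was higher in all CD150 high libraries at 29.7, 32.7 and 28.8 FPKM against 19.1, 17.3 and 18.3 FPKM (0.71 ± 0.18). It was also higher in G4 than in G1 (0.75 ± 0.22).

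Genes known to be higher in old HSCs were mostly on the CD150 high side. Of 69 tested genes of a public HSC aging list, 47 (68.1%) were above 0 on day 4 with a median log2 difference of 0.32, and 25 lay without overlap above and 3 below, against 6.86% and 6.38% of all genes. Of 207 tested genes of a second list, higher in old than in young HSCs of the series, 131 (63.3%) were above 0 (median 0.29), with 46 without overlap above and 9 below. Without the 33 that also rise with CD150 in fresh cells, 102 of 174 (58.6%) were above 0 at a median of 0.18, and over all 207 the median was 0.164 without CD150 low replicate 2. Of 227 tested genes lower with age, 112 (49.3%) were above 0 (median -0.005), with 13 without overlap above and 22 below, whereas in fresh cells 23 of 204 were above 0 in G4 (median -0.67). The public list shares 15 tested genes with the list rising with CD150, and over the other 54 the median was 0.17 with 33 above 0 and 14 against 3 without overlap. Over its 69 genes the median was 0.494 without CD150 low replicate 1.

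Of 9 tested genes of MHC class II presentation 8 were above 0 at a median log2 difference of 0.40 (0.199 without CD150 high replicate 2 and 0.266 without CD150 low replicate 2), and 3 lay without overlap above and 0 below, where 6.86% and 6.38% of all genes do. Cd74, the invariant chain, was at 151, 72.7 and 97.2 FPKM in CD150 high and at 43.5, 37.4 and 51.7 FPKM in CD150 low libraries, without overlap (1.20 ± 0.24), and was called with all 24 libraries (adjusted p = 0.0235). H2-Aa, an α chain of class II, was at 43.3, 55.5 and 37.0 FPKM against 27.6, 18.2 and 21.0 FPKM, without overlap (0.99 ± 0.22). H2-Eb1, a β chain, was at 29.2, 33.3 and 13.9 FPKM against 13.7, 6.49 and 12.2 FPKM, and H2-Ab1, the other β chain, was at 115 ± 29.1 against 86.0 ± 8.83 FPKM with overlap. Between fresh G4 and G1 the median over 10 class II genes was 0.10, and the log2 difference of Cd74 was 0.11 ± 0.22. Class II genes are also made by macrophages, and the summed level of the 26 macrophage genes overlapped between the transplanted groups. Of the 23 tested, 17 (73.9%) were above 0 as the class II genes were, at a median of 0.19 that was -0.34 without CD150 low replicate 3, and 1 lay without overlap above. That gene was Apoe, the apolipoprotein E gene that HSCs also carry, at 810, 521 and 520 FPKM against 448, 249 and 245 FPKM (1.00 ± 0.24). Apoe made up a large part of the summed level of the list, which was 1043 to 1554 FPKM in fresh G1 and G4. That sum is therefore not a measure of macrophages alone. With the mean of the macrophage list as a covariate the log2 difference was 0.90 for Apoe (limma adjusted p = 0.178), 2.09 for Clu (adjusted p = 0.0393), 1.20 for Cd74 (adjusted p = 0.233) and 0.98 for H2-Aa (adjusted p = 0.285), and the class II median was 0.43. Apoe is itself a member of that list, so its value is in part adjusted for itself. The list mean was at 2.8 to 3.42 in CD150 high and 2.1 to 3.87 in CD150 low libraries, so the covariate did not follow the groups. The part of macrophage transcripts in the class II difference was not tested. Of 16 class I genes 12 were above 0 (median 0.18, and 0.08 without CD150 low replicate 2), but 2 lay without overlap above and 0 below.

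Interferon-stimulated genes went both ways. Of 44 tested 27 were above 0 (median 0.04, and -0.06 without CD150 low replicate 2), with 6 without overlap above and 3 below, beside 6.86% and 6.38% of all genes. Iigp1, an immunity-related GTPase gene, was at 60.2 ± 11.2 FPKM (SD, n = 3) in CD150 high and 29.6 ± 6.6 FPKM in CD150 low cells. Ifit3, an antiviral protein gene induced by interferon, was lower, at 3.69 ± 2.49 against 9.63 ± 1.45 FPKM. Neither overlapped between groups. Of 21 chaperone genes 6 lay without overlap above and 1 below, beside the same shares of all genes, with a median of 0.11 that was 0.057 to 0.061 without CD150 low replicate 1 or 3. Dnajb1, an HSP40 co-chaperone, was at 44.5 ± 3.57 against 29.7 ± 2.69 FPKM, the HSP90 co-chaperone Chordc1 at 105 ± 4.11 against 74.6 ± 6.2 FPKM and the constitutive HSP70 gene Hspa8 at 2070 ± 212 against 1730 ± 113 FPKM. Of 25 genes of the unfolded protein response 14 were above 0, and 3 lay without overlap above and 1 below (Creld2, -0.34), again beside 6.86% and 6.38% of all genes. Those above include Xbp1, at 161 ± 47.3 against 101 ± 12.3 FPKM, and Ddit3, at 25.7 ± 1.61 against 16.4 ± 1.13 FPKM.

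Genes of other lineages and of cytokine signalling were lower in CD150 high cells in a few cases. Of 30 cytokine receptor genes 10 (33.3%) were above 0, at a median log2 difference of -0.15, with 1 without overlap above and 5 below, beside 6.86% and 6.38% of all genes. That median was -0.241 without CD150 high replicate 1 and -0.078 without CD150 high replicate 3. Csf3r, the G-CSF receptor of granulocytic cells, was at 2.1, 1.97 and 2.26 FPKM in CD150 high and at 8.05, 3.39 and 9.9 FPKM in CD150 low libraries, without overlap (-1.28 ± 0.37). The type I interferon receptor gene Ifnar2 was at 56.9 ± 11.1 against 76.2 ± 5.01 FPKM and the TNF receptor gene Tnfrsf1b at 2.47 ± 0.702 against 4.77 ± 0.249 FPKM, both without overlap. As lists, 19 lymphoid priming genes (9 above 0, median -0.02) and 16 granulocyte and monocyte genes (8 above 0, median 0.01) were level between groups. Of 14 erythroid genes 8 were above 0 (median 0.35), with 4 without overlap above and 1 below. That median was lower with any 1 library left out (0.009 to 0.269, lowest without CD150 low replicate 2) and was -0.001 without the filter on low values. Car2, carbonic anhydrase, was at 818 ± 72.8 against 615 ± 133 FPKM and Blvrb, biliverdin reductase, at 89.4 ± 33.4 against 52.0 ± 8.53 FPKM, and the transferrin receptor gene Tfrc was lower at 4.9 ± 1.71 against 10.3 ± 1.37 FPKM, each without overlap. Cholesterol synthesis genes had a median of -0.21 (-0.081 without CD150 high replicate 1) with 5 of 23 above 0, nuclear genes of oxidative phosphorylation -0.05 with 25 of 80, ribosomal protein genes -0.04 with 27 of 79, and glycolysis genes 0.10 with 14 of 22.

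The 11 genes lower in CD150 high cells in the fit of all 24 libraries include stromal ones. Mfap5, a microfibril gene of fibroblasts, was at 89.4, 26.6 and 0.4 FPKM in CD150 low replicates 1 to 3 and under 0.01 FPKM in all CD150 high libraries. Fn1, fibronectin, was at 15.7, 5.03 and 1.51 FPKM in CD150 low and at 0, 0.521 and 0.542 FPKM in CD150 high libraries. Both were highest in the 2 libraries that hold the endothelial and stromal transcripts, where the matrix gene Sparc was at 74.1 and 36.5 FPKM, the collagen gene Col3a1 at 12.5 and 4.53 FPKM and the endothelial gene Plvap at 21.4 and 4.61 FPKM. In CD150 low replicate 3, where the list summed to 27.6 FPKM, Mfap5 and Fn1 were above their levels in all CD150 high libraries. These levels, 0.4 and 1.51 FPKM, were under or near the limit of 1 FPKM. Over all settings the log2 difference ranged from -6.7 to -0.63 for Mfap5 and from -3.89 to -0.91 for Fn1. With the stromal list mean as a covariate it was 0.44 for Sparc and 0.22 for Plvap, both members of that list. The part of stromal transcripts in the differences was not tested further. Among the remaining genes called lower, Fgl2, a fibrinogen-like gene of immune cells, was at 1.06 ± 0.549 against 4.13 ± 0.911 FPKM, and Cfb, complement factor B, was at most 0.056 FPKM in CD150 high and at 1.05 to 2.17 FPKM in CD150 low libraries. Among those called higher, Lbhd2 was at 27.1, 10.7 and 12.3 FPKM against 4.26, 1.82 and 2.29 FPKM, Bex1 at 66.5 ± 5.13 against 35.1 ± 5.57 FPKM, and the C-type lectin gene Clec1a at 14.9 ± 4.08 against 6.17 ± 1.55 FPKM. Cyp7b1, an oxysterol hydroxylase gene, was at 10.2 ± 2.01 against 3.54 ± 0.33 FPKM. Of the 21 called higher, 19 of the 20 tested in fresh cells were above 0 in G4, and of the 11 called lower, 3 of 5 were below 0.

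A test of the difference between the transplanted and the fresh comparison (12 libraries, 11894 genes) called 1 gene, Wfdc17, or 0.00841%. Wfdc17, which encodes a secreted whey acidic protein domain factor of myeloid cells, was at 123, 117 and 178 FPKM in G1 and at 10.4, 15.0 and 8.33 FPKM in G4. On day 4 it was at 28.8, 23.7 and 34 FPKM in CD150 high and at 33.5, 22.8 and 13.3 FPKM in CD150 low libraries. The groups that stood far apart in fresh cells thus overlapped after transplantation, and the difference between both log2 differences was 3.91 (limma adjusted p = 0.00327). For Slamf1 that difference was -0.98 (adjusted p = 0.724) and for Sbspon -1.80 (adjusted p = 0.66), neither past the threshold. In the same day 4 libraries the macrophage list mean was 3.42, 2.8 and 3.42 (CD150 high) and 3.87, 3.05 and 2.1 (CD150 low). That mean was 1.3 to 1.54 in G1 and G4. The part of macrophage transcripts in the Wfdc17 values was not tested.

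A contrast of the same kinds of donor cells was available on day 14, with 1 single-cell library each and therefore no test. These cells were sorted as CD45.2, lineage-negative, Sca-1 and c-Kit positive, without a gate on CD150, CD48 or CD34. They thus hold stem cells and progenitors, and the paper found more cells like long-term HSCs in the CD150 high library. After keeping cells with at least 2000 detected genes and at most 5% mitochondrial UMIs, 1933 of 9631 barcodes (CD150 high) and 2406 of 3567 (CD150 low) remained, with a median of 30651 and 19436 UMIs. Levels were summed over all kept cells, so the composition of each library and the expression per cell cannot be told apart. Of 8115 genes with at least 10 CPM (UMI counts scaled to an equal total per library) in a library, 62.3% had a log2 ratio above 0, with a median of 0.05.

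Several genes that stood apart on day 4 stood on the same side on day 14. Clu was at 15.5 CPM (95% Poisson interval 14.6 to 16.5) in the CD150 high and at 1.36 CPM (1.06 to 1.73) in the CD150 low library. Vwf was at 55.9 CPM (54.1 to 57.8) against 10.2 CPM (9.3 to 11.1), and Slamf1 at 35.0 CPM (33.6 to 36.5) against 16.5 CPM (15.4 to 17.7). On the other side, Cd34 was at 178 CPM (175 to 182) against 327 CPM (322 to 332), and Cd48 at 158 CPM (154 to 161) against 241 CPM (237 to 246). The log2 ratios were 1.12 for Mt1, 2.39 for Cavin2, 0.56 for Gfi1b and -0.66 for Nkg7. Other genes without overlap on day 4 stood on the opposite side on day 14. Sbspon, higher on day 4, was at 0.359 against 0.85 CPM. Fn1 and Ifit3, lower on day 4, had log2 ratios of 2.24 and 0.98. Among 22 genes that the study names as rising or falling, 14 (63.6%) were above 0, near the 62.3% of all genes. Of 22 megakaryocyte and platelet genes 19 were above 0 at a median of 0.81, and Pf4, level on day 4, was at 555 against 203 CPM. Lists of lymphoid priming (1 of 17 above 0, median -0.47) and of granulocytes and monocytes (2 of 21, median -0.37), level on day 4, were lower in the CD150 high library.

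Class II genes stood the other way in the mixed stem and progenitor cells of day 14. All 8 measured members were lower in the CD150 high library, at a median log2 ratio of -0.82, with Cd74 at 10.7 CPM (9.9 to 11.5) against 23.1 CPM (21.8 to 24.5). Of 16 immediate early genes 1 was above 0 on day 14 (median -0.79). This list had been level on day 4, with 10 of 19 above 0 at a median of 0.035. On day 4, 1 member lay without overlap above (Klf6) and 1 below (Klf4, -1.07), beside 6.86% and 6.38% of all genes. Klf6 was at 21.6 ± 4.28 against 10.1 ± 3.75 FPKM on day 4 (SD, n = 3), and its log2 ratio on day 14 was -0.91. Wfdc17 was at 13.8 CPM (12.9 to 14.7) against 31.7 CPM (30.2 to 33.3).

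**Figure D4:**
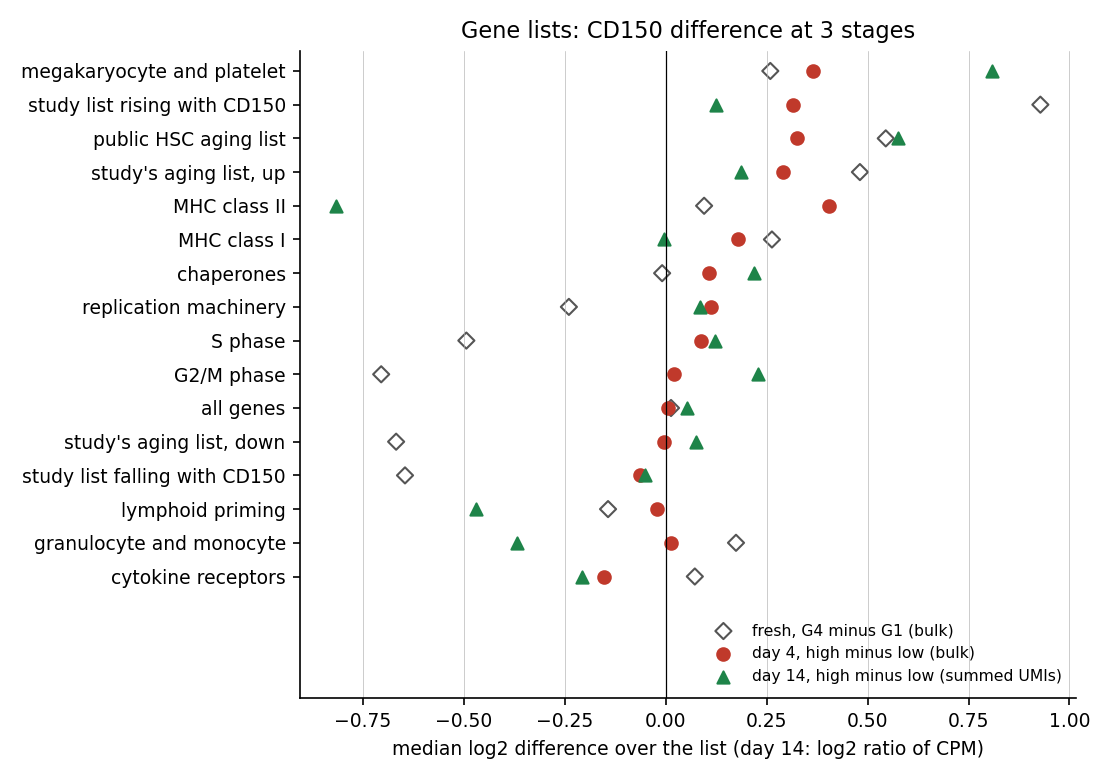
Median log2 difference over 15 gene lists and over all genes (x axis) in fresh cells (G4 minus G1, open diamonds), on day 4 (CD150 high minus low, circles) and on day 14 (log2 ratio of CPM, triangles). The megakaryocyte and platelet list stands above 0 at each stage (0.26, 0.36 and 0.81), both cell cycle lists stand below 0 only in fresh cells, and MHC class II stands at 0.40 on day 4 and at -0.82 on day 14.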

How the data were processed

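Bulk RNA of sorted HSCs was made into full-length cDNA libraries (SMART-Seq v4), and per the labels the authors used Trim Galore, HISAT2 2.0.0 on mm10, SAMtools 1.14, HTSeq 0.12.4 and DESeq2 1.22.2, with Cufflinks also named. The deposited bulk values are FPKM per gene, by the authors, with no read totals, so depth is unknown, and counting is described without strand, so overlapping and antisense genes are uncertain. Repeated rows (10 in each bulk table) were summed, which left 21825 genes. The deposited day 14 files hold raw UMI counts per gene and cell from Cell Ranger, which were summed over kept cells. Exact Poisson intervals cover counting error only, doublets were not called, and 3 kept barcodes occur in both libraries.

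Groups came from GEO's labels. Testing used limma 3.58.1 in R 4.3.3 (eBayes with trend) on log2(FPKM + 1), keeping a gene where either compared group averaged 1 FPKM or more, tested on simulated data first. Gene positions are from GENCODE on GRCm38, the build of mm10. G1 and G4 libraries with the same number come from the same mouse (labels), with correlations of their deviations of 0.002, 0.094 and 0.086. Gene lists carry counts and medians but no test. The members and lists were chosen with earlier results of these data known. Named were the genes called, sort markers, those of the fresh comparison, up to 3 members of each list with the smallest p and the study's CD150 genes. Those called with all 24 libraries, H2-Ab1, the list members with larger p and the stromal and SLAM family genes were chosen after their values were seen. Alternatives were a pseudocount of 0.1, no filter, median ratio or quantile scaling, each library left out, a replicate block, all 24 libraries, and macrophage or stromal covariates. Some genes that this rule takes are not reported here.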

Additional observations from a re-analysis of the deposited data

Results flagged for a closer look

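Wfdc17 was singled out because its difference between CD150 high and low cells was not the same before and after transplantation, by a test of that difference (3.91 on the log2(FPKM + 1) scale, limma interaction, adjusted p = 0.00327). Its log2 difference was -3.53 ± 0.26 (SE) between fresh G4 and G1 and 0.38 ± 0.30 between the transplanted groups. The macrophage list mean was higher in every transplanted library than in G1 and G4, and its part in this result was not tested. At an unadjusted p under 0.05 stood 6.61% of 11894 genes.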

How the results depend on the processing

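The number of genes called between the transplanted groups (0) was 3 with the replicate block, 2 without a filter on low values, 32 with all 24 libraries, 5 with the macrophage covariate, 0 with the stromal covariate (added after seeing the data), and 0 to 9 with 1 library left out (9 without CD150 low replicate 3). Replicate numbers of the transplanted groups did not pair (correlations of deviations -0.007, -0.056 and -0.076), so the block is no paired analysis there. With all 24 libraries it was 15 to 172 with 1 transplanted library left out, settings added after seeing the data. For G4 against G1 the number (3) was 0 without a filter, 1 with the mouse as replicate block and 0 to 96 with 1 library left out (96 without G1 replicate 3). For the difference between both comparisons (1) it was 7 without a filter and 1 to 12 with 1 library left out (12 without CD150 low replicate 3 and 2 without CD150 low replicate 2). The share of genes called in fresh cells with the same direction on day 4 (66.7%) was 0% with the replicate block and 0% to 90.9% with 1 library left out, and 3 settings called no gene to follow. Of 78 named genes 73 kept their sign in each setting: with 1 library left out Pf4 ranged from -0.10 to 0.31, Selp from -0.06 to 0.16 and Procr from -0.13 to 0.10, and with the stromal covariate Procr was at 0.01, Sparc at 0.44 and Plvap at 0.22. The medians of the megakaryocyte, MHC class II and published aging lists stayed above 0 in every setting (0.23 to 0.63, 0.20 to 0.60 and 0.18 to 0.49), as did that of the genes higher in old HSCs of the series (0.063 to 0.351), and those of S phase (-0.01 to 0.14) and G2/M (-0.19 to 0.14) crossed 0. The causes were not tested. With 3 libraries a group and no read totals, differences of genes near 1 FPKM are the least certain.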
